A study of Saccharomyces cerevisiae with 7 samples.

Results

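The hour from 2 h to 3 h of yeast sporulation is described here through the 56 genes whose log2 ratio differed by 1 or more, a 2-fold difference, between those hours. These 56 were found among 5666 genes with values, of 6141 rows in all. Of the 56 genes, 34 were higher at 3 h than at 2 h and 22 were lower. The 2-fold rule was applied to the 2 h and 3 h columns themselves, so these differences are a description and not a finding.

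Saccharomyces cerevisiae cells were collected by filtration during meiosis, and their polyadenylated RNA, labelled with Cy5, was hybridised against a Cy3-labelled mix of RNA from the meiotic time points. Each gene has 1 deposited log2 ratio per time point (1, 2, 3, 4, 5, 6 and 8 h), taken relative to 0 h, and the design text states 3 independent cultures. All columns share the same mix and the same division by 0 h, and that division cancels in a difference between hours. The sources used here do not give the strain, the medium or how the cultures were combined. No value below has a replicate error, no difference has a replicate check, and no p-value is given. "Higher" and "lower" state the deposited values.

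Yeast cells that lack nitrogen and a fermentable sugar copy their DNA, recombine their homologous chromosomes and then divide them in a pair of meiotic divisions. The early genes, which serve recombination, are switched on under the control of Ime1. The middle genes, which serve the divisions and the building of spores, wait for the transcription factor Ndt80 and are held off before that by the repressor Sum1. A gene called middle is one that is known for transcription in this later phase.

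Marker genes of meiotic entry stood above 0 h at both hours. All 7 marker genes of meiotic cells (IME1, IME2, SPO11, REC8, HOP1, ZIP1 and DMC1) were at least 2-fold above 0 h, between 2.85 and 6.48 on the log2 scale at 2 h and between 2.78 and 6.60 at 3 h. Of 26 measured genes of mating and haploid cells, 2 stood at least 2-fold above 0 h at 2 h and 4 did so at 3 h. Their values ran from -0.37 to 3.43 at 2 h and from -0.76 to 3.57 at 3 h, so the ranges of the marker sets overlapped. The share of all genes as far above 0 h was not counted, nor was a planned marker set of growing cells. The list of bud neck, septin and cytokinesis genes, part of that set, had median levels of 0.06 (2 h) and 0.015 (3 h). The column medians over all genes were -0.01 at both hours.

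Few genes moved in this hour compared with the hours on either side. The 56 genes make up 0.988% of the genes with values, with 0.600% higher and 0.388% lower. From 1 h to 2 h, 335 genes (5.91%) differed by 1 or more, and from 3 h to 4 h 120 genes (2.12%) did. The SD of the change over all genes was 0.318 between 2 h and 3 h, against 0.491 in the hour before and 0.415 in the hour after. From 1 h to 2 h 270 genes were higher (4.77%) and 65 lower (1.15%), and from 3 h to 4 h 110 were higher (1.94%) and 10 lower (0.176%). Whether these steps differ beyond the error of a column was not tested, since each hour is 1 column.

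**Figure D1:**
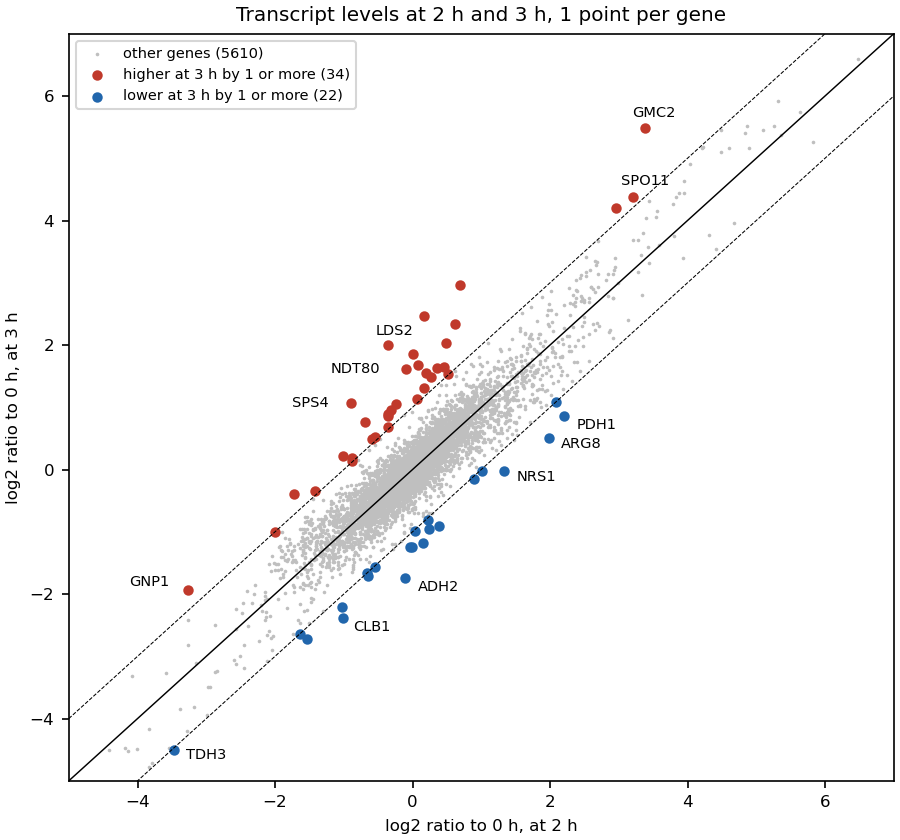
Log2 ratio to 0 h of each gene at 2 h (horizontal axis) and at 3 h (vertical axis). Dashed lines mark a difference of 1, and the 34 genes above them and the 22 below them are coloured, among the other genes in grey.

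NDT80 itself came on in this hour. Across the 7 time points in order its log2 ratios were -0.24, -0.10, 1.62, 4.32, 6.90, 7.10 and 6.98, which makes a difference of 1.72 from 2 h to 3 h. It was flat before and went on upward afterwards. SUM1, the gene of the opposing repressor, stood at -0.01 at 2 h and -0.15 at 3 h. The early regulators IME1 and IME2 differed by -0.07 and 0.36 between these hours. Over the 7 hours, the genes whose values correlated best with NDT80 were the septin gene SPR28 (Pearson r = 0.998), the heat shock gene SSA4 (0.998) and the chitin deacetylase gene CDA1 (0.997). These correlations are across 7 columns that share the mix and the 0 h division and follow each other in time. SSA4 covered a much smaller range, from -0.59 (2 h) to 2.13 (8 h).

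Beside NDT80, 2 other genes with a regulatory product were among the 34. GAT3, a gene of the GATA zinc finger family, stood at 0.20, 0.16, 2.46, 3.07, 5.48, 6.09 and 7.57 from 1 h to 8 h. Its difference of 2.30 between 2 h and 3 h was larger than the 0.61 between 3 h and 4 h, unlike that of NDT80, whose next step was 2.70. CDC27, a subunit of the anaphase-promoting complex that marks proteins for destruction at division, had ratios of 0.63, 0.51, 1.54, 1.19, 3.71, 4.55 and 5.64 in the same order.

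Among genes of recombination and chromosome segregation, GMC2, SPO11 and MAM1 passed the 2-fold rule. GMC2, whose product belongs to the central element of the synaptonemal complex, had ratios of 1.32, 3.38, 5.49, 5.90, 5.74, 5.62 and 5.14 from 1 h to 8 h. SPO11, the gene of the DNA-cutting protein of meiotic recombination, had 1.82, 3.21, 4.37, 4.98, 4.59, 4.33 and 3.87. Both genes were already high at 2 h and had their highest value at 4 h. MAM1, a part of the monopolin complex that keeps sister chromatids together on 1 pole in the first division, had -0.42, 0.62, 2.33, 5.07, 6.80, 6.75 and 6.58, with its highest value at 5 h.

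The list of chromosome axis and synapsis genes had the highest median change of the 50 gene lists, 0.61, against 0.005 for all genes. All 16 measured members were higher at 3 h than at 2 h, as were 50.0% of all genes (48.3% were lower). A change of 0.5 or more upward was seen in 11 of the 16, against 4.82% of all genes, and GMC2 alone passed the 2-fold rule. NDJ1, which ties telomeres to the nuclear envelope, was just short of it, with 4.49 and then 5.46. The axis genes HOP1 and REC8, whose levels were already 5.36 and 6.48 at 2 h, differed by 0.02 and 0.12. With the columns scaled to the same SD, HOP1 and REC8 turned to -0.19 and -0.14, so that 14 of 16 were higher. The list median was then 0.42, below the 0.47 of cytosolic ribosomal proteins.

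Members of the break formation list behaved unevenly. Its median change was 0.41 over 10 measured genes. Of these, 4 were higher by 0.5 or more (4.82% of all genes) and 0 were lower by as much (5.31%). SPO11 and REC102 differed by 1.16 and 0.87, whereas SAE2, which processes the broken ends, and REC107, another break formation gene, differed by -0.17 and -0.15. In the strand exchange list, MEI5, a partner of the recombinase Dmc1, differed by 0.66 and RFA1, of the single-strand binding protein, by -0.50. The median of that list was 0.17 and turned to -0.04 with scaled columns.

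The largest group among the 34 was spore formation, with 12 genes. Their differences from 2 h to 3 h ran from 1.14 to 2.35, and the median level of the group was -0.08, 1.40, 4.89 and 8.36 in the 4 columns from 2 h to 5 h. All 12 went on upward after 3 h. For 4 of them the climb had begun before 2 h: from 1 h to 2 h SPO74 was higher by 1.16, SPO23 by 0.87, SPR28 by 0.75 and CDA1 by 0.50.

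LDS2 had the largest difference of all genes, 2.35. LDS1 and LDS2 encode lipid droplet proteins of sporulating cells that act in spore wall assembly. LDS2 stood at 0.34, -0.35, 2.00, 6.06, 8.37, 8.29 and 8.02 from 1 h to 8 h, and LDS1 at -0.20, -0.31, 0.95, 5.18, 8.04, 8.00 and 7.65. Both had their highest value at 5 h.

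SPS4 and SPS2 are sporulation-specific genes that ended with the highest values of the group. SPS4 stood at 0.70, -0.90, 1.07, 5.44, 10.29, 10.85 and 11.75 over the 7 time points. It was the only gene that went down by 0.8 or more from 1 h to 2 h and up by as much from 2 h to 3 h. SPS2, of the family of the cell wall protein Ecm33, stood at -0.16, 0.08, 1.68, 6.56, 10.92, 11.33 and 11.70, with no such dip.

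The sporulation septins form bars along the growing spore membrane. From 2 h to 4 h SPR28 had 0.49, 2.03 and 4.96, and SPR3 had -0.24, 1.05 and 4.63. In the list of septin, bud neck and cytokinesis genes these were the 2 of 16 that passed the 2-fold rule upward. The other 14 differed by less than 1 either way, and the median change of the list was 0.03.

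Enzymes and structural genes of the spore wall and membrane made up most of the remaining members. CDA1, which turns chitin into the chitosan of the spore wall, went from 0.35 to 1.63 between 2 h and 3 h, and GAS4, a glucan-remodelling enzyme of the spore wall, from 0.27 to 1.48. SPO74, of the meiotic outer plaque on which the spore membrane starts to form, stood at 0.17 and 1.31. IRC18, known for a role in the outer spore wall, stood at -0.35 and 0.89, and PES4, an RNA-binding protein gene, at -0.36 and 0.86. SPO23 went from 0.20 to 1.55 and had its highest value, 6.00, at 5 h.

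The middle sporulation list was mixed. Of its 38 measured genes, 9 were higher at 3 h by 1 or more (0.600% of all genes) and 18 by 0.5 or more (4.82%). By any amount, 11 of the 38 were lower, as were 48.3% of all genes. The median change was 0.41, after 0.25 in the hour before and ahead of 1.91 in the hour after. GIP1, a phosphatase subunit needed for spore formation, was lower by 0.39 at 3 h and stood at -0.99, and SMK1, a kinase of spore wall assembly, differed by 0.06. SPS1, another kinase of spore formation, came close to the rule, from -0.64 to 0.31.

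The 9 genes of the middle list that passed also had high values in columns that the rule did not use. Between 1 h and 4 h they were higher by 4.56 to 6.72, with a median of 5.22. The other 29 differed by -1.03 to 5.56 between the same hours, with a median of 2.17. At 5 h the medians of the 9 and the 29 were 8.35 and 5.85. The ranges overlapped, and this is a description of 1 column per hour. Both the span from 1 h to 4 h and the level at 5 h take in the hour that chose the 9. Part of the gap is therefore built in.

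Late spore wall genes were mixed as well. The spore wall and late list had a median change of 0.36, with 4 of 19 genes higher by 1 or more (LDS1, LDS2, CDA1 and GAS4) and 8 by 0.5 or more. Over all genes these shares were 0.600% and 4.82%. DIT1, which makes the dityrosine of the outermost layer, differed by -0.11 and stood at 0.47 at 3 h. In the meiotic divisions list the median change was 0.04, with MAM1 the 1 gene higher by 1 or more and the cyclin gene CLB1 the 1 gene lower by as much (-1.38). CDC5, the polo kinase gene, had -0.29, -0.55 and 2.31 from 2 h to 4 h.

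Reading frames with no function stated here had courses like those of the spore formation genes. The 8 of them were YGL138C, YGR273C, YGL230C, YKR005C, YFL040W, YDL186W, RRT5 and DCV1. YGL138C stood at -0.34, 0.69, 2.97, 6.02, 7.99, 7.72 and 7.27 from 1 h to 8 h, and its difference of 2.28 was the third largest of all genes. YGR273C stood at 0.15, 0.01, 1.86, 3.28, 7.41, 7.71 and 8.14 over the same hours. YKR005C differed from the others in that it began high, with 1.65 (1 h) and 2.96 (2 h). The median level of the 8 went from -0.27 (2 h) to 1.08 (3 h) and 6.85 (5 h).

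**Figure D2:**
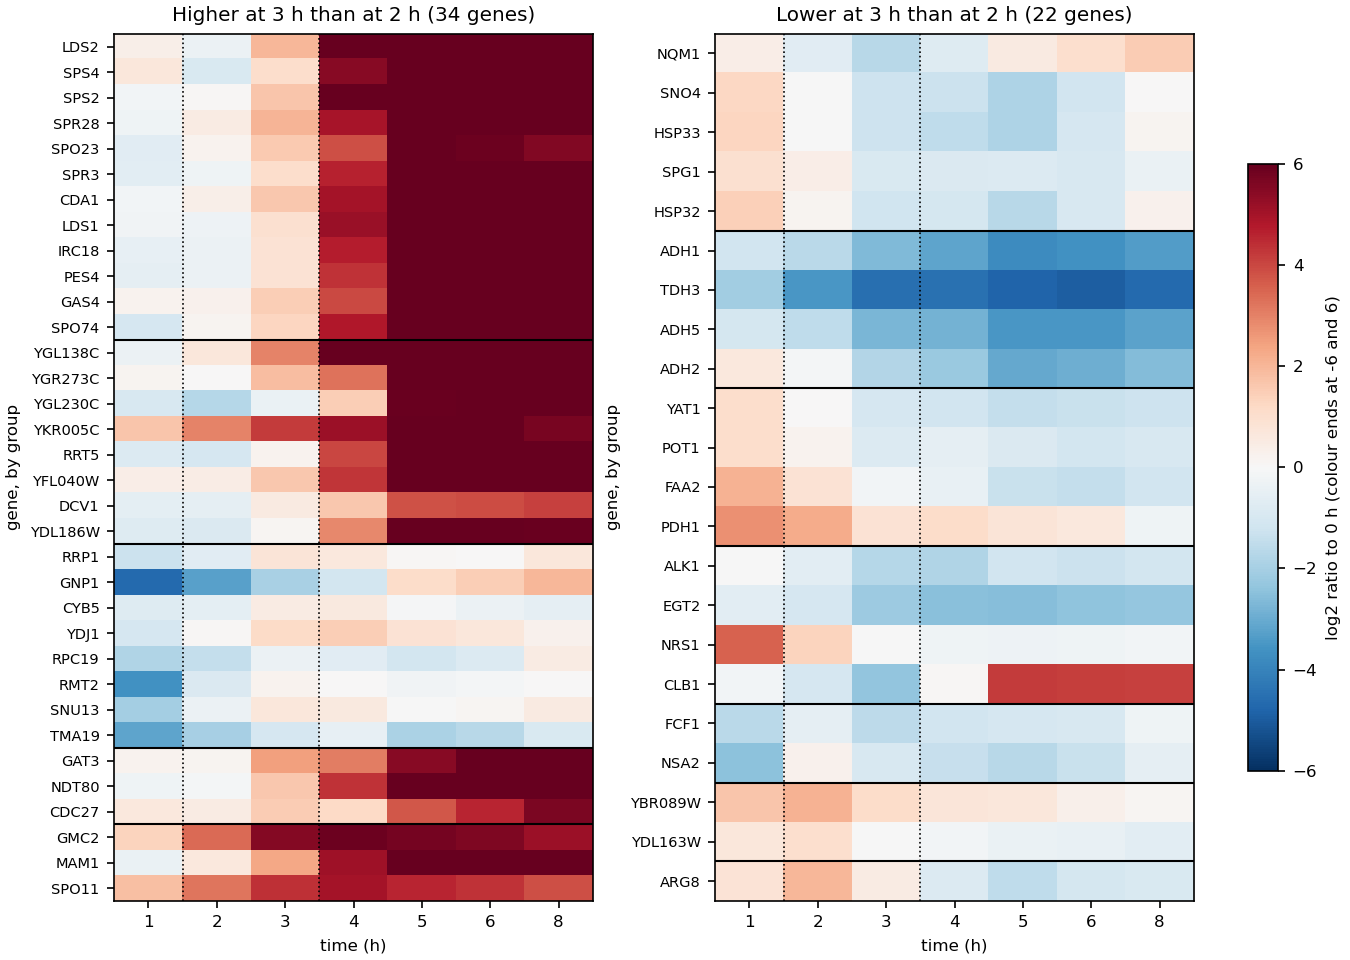
Log2 ratio to 0 h of the 34 genes higher at 3 h (left) and the 22 lower (right) at each time point, in colour, with horizontal lines between functional groups and dotted lines around 2 h and 3 h. Spore formation genes at the top left go on to their deepest colour after 3 h, while the genes of growth functions (RRP1 to TMA19) stay within 2 of 0 after 3 h.

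A further 8 of the 34 genes serve the ribosome, transcription and other functions of growing cells, and their courses were of another kind. From 2 h to 5 h their median level was -0.79, 0.34, 0.31 and -0.06. All 8 were below 0 h at 1 h and higher at 3 h, where some, such as YDJ1 (1.14), stood above 0 h. RRP1, needed to process ribosomal RNA, stood at -1.29, -0.69, 0.77 and 0.63 from 1 h to 4 h. RPC19, a subunit shared by RNA polymerases I and III, stood at -1.79, -1.42, -0.35 and -0.70. SNU13, which works in the spliceosome and in ribosomal RNA modification, had -2.03, -0.36, 0.69 and 0.59. For SNU13 and RMT2, an arginine methyltransferase gene (-3.62, -0.88, 0.19 and 0.03), the step from 1 h to 2 h was the larger one.

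GNP1, the gene of a glutamine permease, was the lowest of these at the start. It had -4.68, -3.27, -1.93 and -1.11 from 1 h to 4 h and climbed to 1.99 by 8 h. TAT1, another amino acid permease gene, went from -4.08 to -3.32 between 2 h and 3 h, while the general permease gene GAP1 was lower by 0.54. In the list of amino acid permeases 3 of 21 were higher by 0.5 or more and 2 were lower by as much. Over all genes these shares were 4.82% and 5.31%.

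YDJ1, which encodes a co-chaperone of Hsp70, stood at -1.02, 0.07, 1.14 and 1.47 from 1 h to 4 h. In the list of heat shock chaperones 28 of 30 measured genes were higher at 3 h (50.0% of all genes), with a median of 0.35. Higher by 0.5 or more were 7 (4.82% of all genes), among them HSC82 (0.73). HSP12, a small stress protein gene, went the other way by -0.62. CYB5, which encodes cytochrome b5, differed by 1.08. TMA19, a ribosome-associated protein gene, differed by exactly 1.00 and was still below 0 h afterwards.

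Ribosome lists had small differences that mostly ran 1 way. Of 130 measured cytosolic ribosomal protein genes, 127 were higher at 3 h than at 2 h, as were 50.0% of all genes. By 0.5 or more 40 were higher (4.82% of all genes), while 0 passed the 2-fold rule. The median change was 0.43, after 0.90 in the hour before and ahead of -0.21 in the hour after, so 3 h was a local high at -0.93. RPL26B (-1.45 to -0.48) and RPS11B (-1.90 to -1.01) had the largest differences, and RPL37B was lower by 0.50. Most are encoded by pairs of nearly the same sequence, and values of single copies are uncertain. Translation factor genes had a median change of 0.25 (24 of 27 higher) and ribosome biogenesis genes of 0.25 (34 of 42 higher). The DEAD-box helicase gene DBP2 differed by 0.94 and the ribosome assembly gene RLP24 by 0.81. In the same biogenesis list BFR2 and RPA12 went the other way, by -0.93 and -0.70. There 7 genes were higher by 0.5 or more and 2 were lower by as much (5.31% of all genes). NSA2 and FCF1, ribosome assembly genes described below, differed by -1.19 and -1.02.

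The 22 genes lower at 3 h fell into smaller groups. Their differences ran from -1 to -1.64, and 1 gene, ADH2, passed 1.5 downward where 10 passed it upward. From 1 h to 4 h their median level was 0.74, 0.02, -1.21 and -1.09. At 2 h 11 were above 0 h and 11 below it, and at 3 h 19 of the 22 were below 0 h. The rule chose these genes for a lower value at 3 h, so this shift is built in. The share of all genes below 0 h was not counted.

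ADH2 had the largest downward difference of all genes, and 2 other alcohol dehydrogenase genes were among the 22. ADH2, the enzyme that oxidises ethanol, stood at 0.62, -0.11, -1.75, -2.22, -3.06, -2.93 and -2.61 from 1 h to 8 h. ADH1, the main fermentative enzyme, went from -1.64 to -2.64 between 2 h and 3 h, and ADH5 from -1.54 to -2.72. All 3 had their lowest value at 5 h. TDH3, of the glycolytic glyceraldehyde-3-phosphate dehydrogenase, was already low at 2 h (-3.47) and went to -4.51. These genes have close copies whose signals can mix on an array, and the copies TDH1 and TDH2 differed by -0.93 and -0.92 in the same hour.

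The glycolysis list, which holds TDH3 and ADH1, was lower at 3 h in 17 of 21 genes (48.3% of all genes). In 9 it was lower by 0.5 or more, where 5.31% of all genes were. Its median change was -0.48 and -0.37 with scaled columns. HXK2, a hexokinase gene, went against the list with a difference of 0.38. With scaled columns the differences of TDH3 and ADH1 were -0.88 and -0.92 and no longer passed 1.

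Genes for the use of fatty acids, propionate and acetyl units through carnitine were lower at 3 h. FAA2, a fatty acid activating enzyme, had 2.07, 0.89, -0.15 and -0.44 from 1 h to 4 h. POT1, the peroxisomal thiolase of beta-oxidation, stood at 1.05, 0.23, -0.81 and -0.54, and YAT1, a carnitine acetyltransferase, at 1.07, 0.04, -0.99 and -1.13. PDH1, of the pathway that breaks down propionate, stood at 2.72, 2.21, 0.86 and 1.09. All 4 were above 0 h at 1 h and lower with each hour to 3 h. CIT3, the gene next to PDH1 in the R64 assembly and a citrate synthase of the same pathway, differed by -0.85.

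Lists of the same metabolism were mostly lower as well. They hold genes chosen for being lower: YAT1 is in the acetate list, and POT1 and FAA2 are in the fatty acid list. In the acetate, gluconeogenesis and glyoxylate list 20 of 23 genes were lower and 12 were lower by 0.5 or more, with a median of -0.52. Of all genes, 48.3% were lower and 5.31% by as much. CAT2, another carnitine acetyltransferase, differed by -0.96. PCK1, the gluconeogenic PEP carboxykinase gene, was higher by 0.84 and stood at -2.42 at 3 h. In the fatty acid oxidation and peroxisome list 19 of 24 were lower, 5 of them by 0.5 or more, with a median of -0.24.

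Genes of stationary phase and stress gave 5 members. HSP32, HSP33 and SNO4, near-identical genes of the Hsp31 family near chromosome ends, had 2 h values of 0.15, -0.01 and -0.03 and 3 h values of -1.18, -1.24 and -1.25. Signals of such copies cannot be told apart here, so the 3 values may be 1 observation. SPG1, needed for survival in stationary phase, went from 0.38 to -0.90. NQM1, a transaldolase gene, stood at 0.42, -0.66, -1.66, -0.78 and 0.55 from 1 h to 5 h and ended with 1.52. The list of general stress response genes, which holds SPG1, had a median change of -0.21, with 22 of 31 lower (48.3% of all genes).

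A further 4 of the 22 are known for roles in the mitotic cycle, and CLB1 among them later reversed. CLB1, a B-type cyclin gene, stood at -0.17, -1.01, -2.39, 0.09, 4.19, 4.16 and 4.11 from 1 h to 8 h. Its lowest value was thus at 3 h, just ahead of a climb of 2.48 in the next hour. EGT2, which acts in the separation of daughter cells, went from -1.03 to -2.20, and ALK1, a haspin-like kinase gene, from -0.65 to -1.71. NRS1, which promotes entry into the mitotic cycle when nitrogen is short, had 3.55, 1.33, -0.02 and -0.27 from 1 h to 4 h. All 16 measured genes of the daughter separation list were lower at 3 h, with a median of -0.48. Of the list, 8 were lower by 0.5 or more (5.31% of all genes). DSE1 and EGT2 had the largest differences in it (-0.98 and -1.17), and SUN4 the smallest (-0.08). Other lists of the mitotic cycle showed this less or not at all. The median was -0.12 for G1 cyclins and start, with 8 of 12 lower and 4 higher, where 48.3% of all genes were lower. The bud neck list above had 9 of 16 higher, the sporulation septin genes SPR28 and SPR3 among them.

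ARG8, NSA2 and FCF1 had a local peak at 2 h, with the step into 2 h and the step out of it in opposite directions. The highest value of FCF1 was at 8 h, -0.27. ARG8, an enzyme of arginine synthesis, stood at 0.80, 1.98, 0.51 and -0.84 from 1 h to 4 h and had the second largest difference of the 22, -1.47. NSA2, which acts in assembly of the large ribosomal subunit, stood at -2.44, 0.24, -0.95 and -1.36, and FCF1, which acts in that of the small subunit, at -1.61, -0.55, -1.57 and -1.14. The arginine and lysine synthesis list, which holds ARG8, had a median change of -0.39, with 15 of 18 lower (48.3% of all genes).

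The 2 reading frames without an annotated gene are each numbered next to a replication gene. YBR089W went from 2.08 to 1.08 between 2 h and 3 h, and the next-numbered POL30, the sliding clamp of DNA replication, from 2.09 to 1.10. YDL163W went from 1.01 to -0.02, and the next-numbered CDC9, the DNA ligase gene, from 1.22 to 0.31. The values of each pair stood close together at both hours. Whether the reading frame and the gene of a pair are separate observations was not tested. Across the DNA replication list 21 of 30 genes were lower (48.3% of all genes), with a median of -0.18. Lower by 0.5 or more were 6 (5.31% of all genes), among them PRI2 of primase (-0.91). RNR1, of ribonucleotide reductase, went from 1.50 to 0.74.

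Most cohesin and histone genes were lower at 3 h as well, with 0 of them passing the 2-fold rule. Cohesin had the lowest median change of the 50 lists, -0.56, with 8 of 10 lower and 6 lower by 0.5 or more. Of all genes, 48.3% were lower and 5.31% by as much. MCD1, the mitotic subunit, went from 0.15 to -0.69 and ECO1, which establishes cohesion, from 1.55 to 0.84, while the meiotic subunit gene REC8 differed by 0.12. Among 11 histone genes 10 were lower, with a median of -0.27, and HTZ1, a variant gene, was higher by 0.39. Genes under nitrogen catabolite repression were lower in 30 of 33 cases with a median of -0.34, and the allantoin genes DAL2 and DAL5 differed by -0.95 and -0.87.

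**Figure D3:**
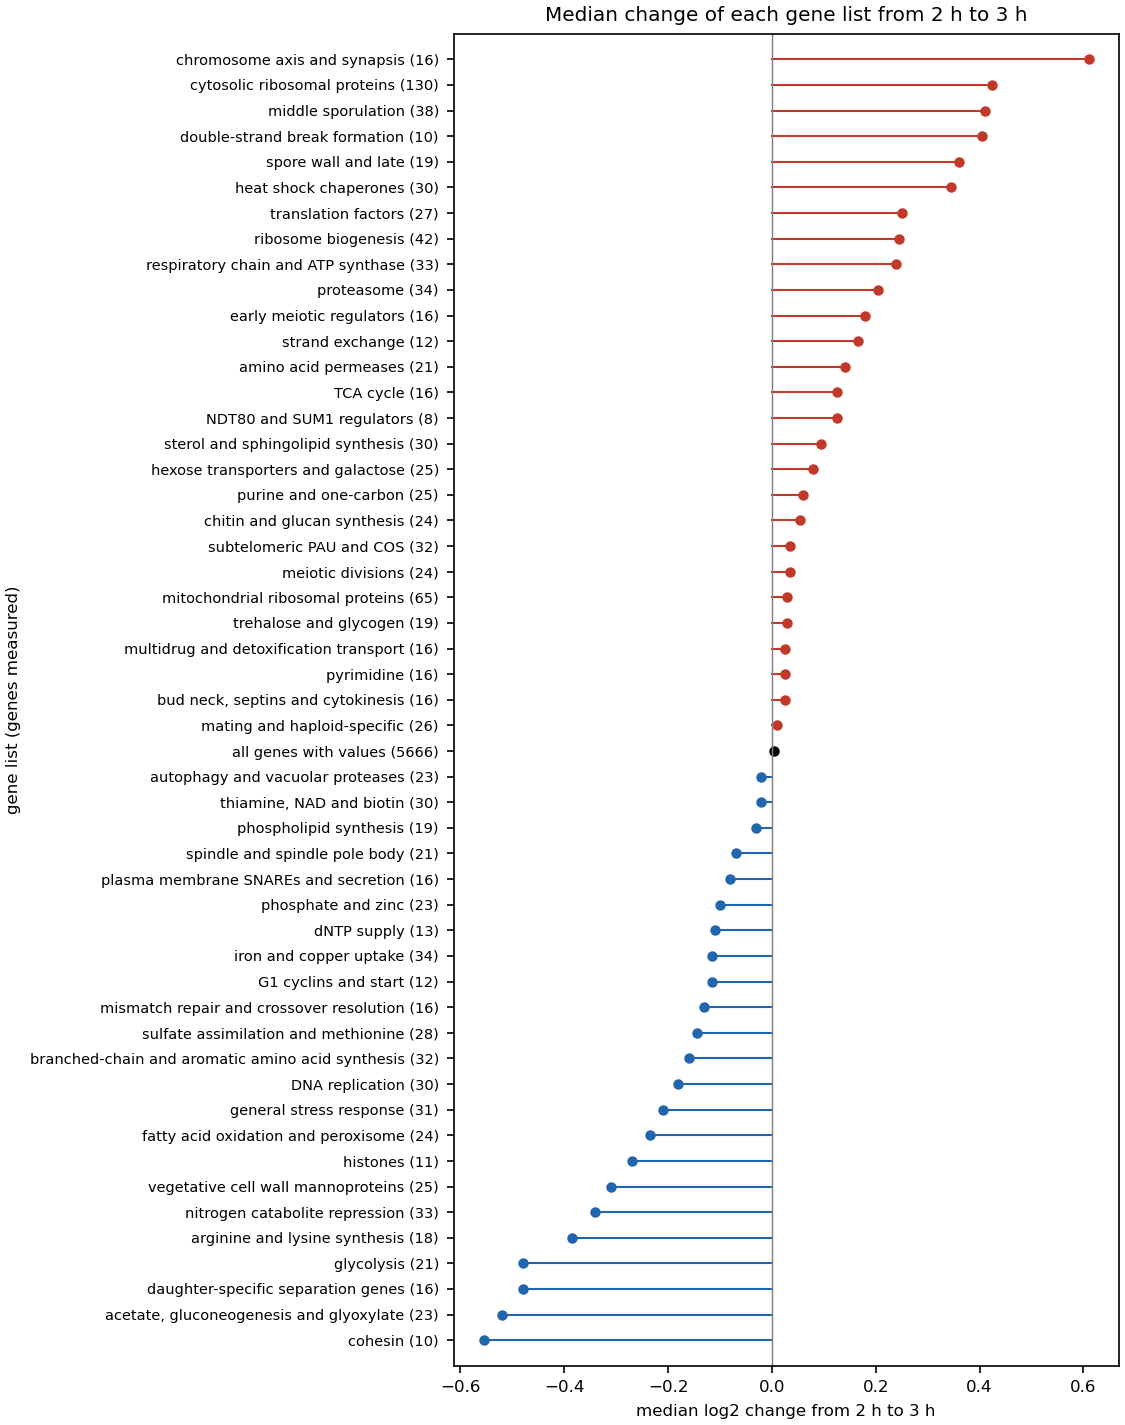
Median log2 change from 2 h to 3 h (horizontal axis) of each of 50 gene lists and of all genes with values (black), with the number of measured genes in parentheses. The medians run from -0.56 for cohesin to 0.61 for chromosome axis and synapsis.

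**Figure D4:**
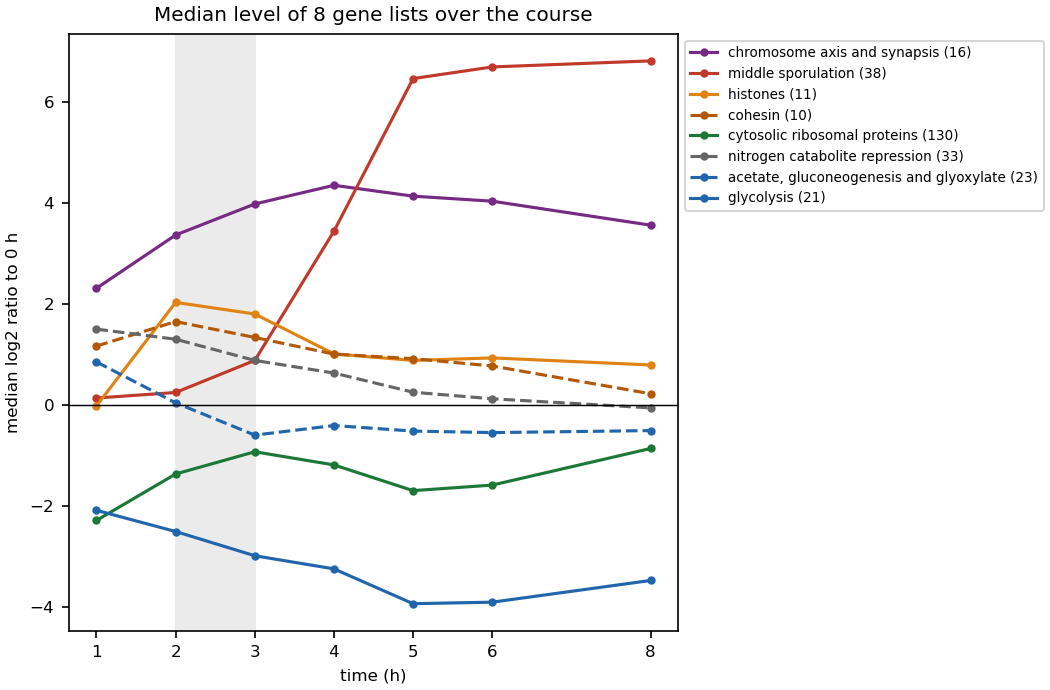
Median log2 ratio to 0 h of 8 gene lists at each time point, with 2 h to 3 h shaded. Within the shaded hour the middle sporulation list goes from 0.25 to 0.88 and the cytosolic ribosomal protein list from -1.37 to -0.93, while the glycolysis list goes from -2.51 to -2.99.

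The columns for 1 h and 4 h took no part in choosing the 56 genes. The span between them contains the hour from 2 h to 3 h, so a shared direction is partly built in. All 34 genes higher at 3 h were also higher at 4 h than at 1 h, where 54.2% of all genes were, and 33 of them by 1 or more, where 10.6% of all genes were. CDC27, with 0.56, was the exception to the latter. Of the 22 lower genes 19 were lower at 4 h than at 1 h (45.1% of all genes) and 17 by 1 or more (5.47%). The 3 genes that were higher at 4 h than at 1 h were NSA2 (1.08), FCF1 (0.47) and CLB1 (0.26), and YBR089W (-0.93) and YDL163W (-0.83) stayed within 1. The median difference from 1 h to 4 h was 3.84 for the higher genes and -1.81 for the lower ones.

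**Figure D5:**
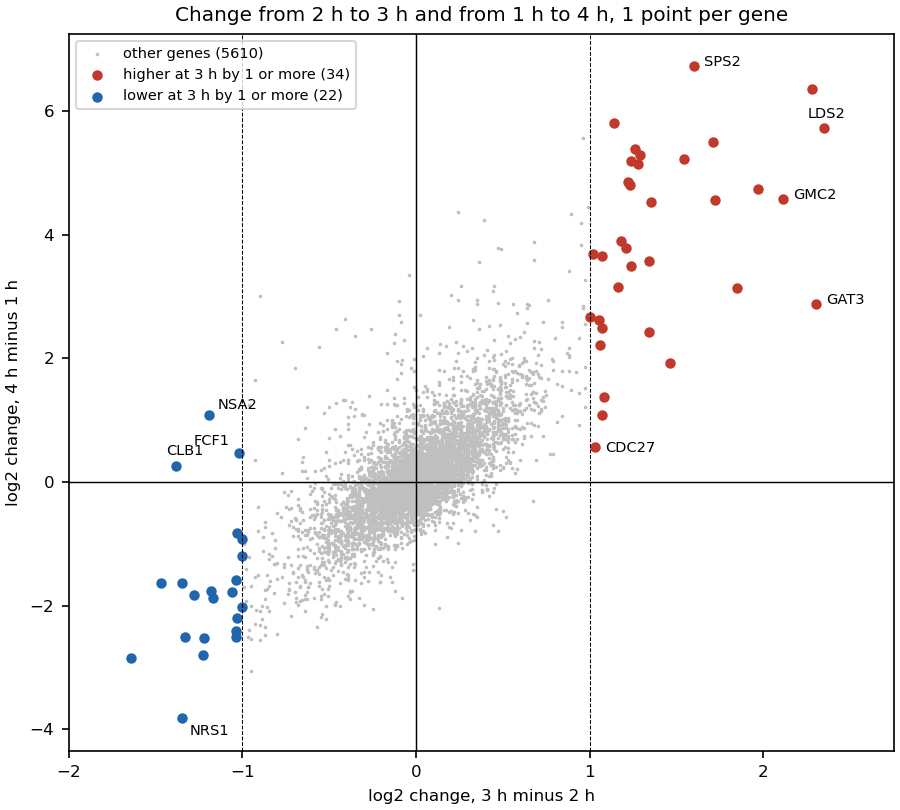
Log2 change of each gene from 2 h to 3 h (horizontal axis, used to choose the coloured genes) and from 1 h to 4 h (vertical axis, columns not used). The span from 1 h to 4 h contains the hour from 2 h to 3 h. All 34 genes on the right lie above 0, and 19 of the 22 on the left lie below it.

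The neighbouring steps of the 56 genes were as follows. In the step from 3 h to 4 h, 25 of the 34 higher genes went on upward by 0.5 or more (5.19% of all genes), 9 stayed within 0.5 and 0 turned back by as much. Of the 22 lower genes 18 stayed within 0.5, as did 91.6% of all genes, ARG8 and ADH1 went on downward by 0.5 or more (3.25% of all genes) and CLB1 and NQM1 turned up. In the step before, from 1 h to 2 h, 15 of the 22 lower genes had already gone down by 0.5 or more (7.38% of all genes), and 15 of the 34 higher genes had gone up by as much (14.4%). An error in the 2 h or 3 h column would push neighbouring steps in opposite directions, because they share that column. Among the 34 higher genes 16 had their highest value at 8 h, where 22.9% of all genes did. Among the 22 lower genes 15 had their highest value at 1 h (24.6% of all genes) and 10 their lowest at 5 h (14.3%).

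The set has soft edges. Just inside the rule upward were TMA19 (1.00), YDL186W (1.02) and CDC27 (1.03), and just outside were MIP6 (0.99), NDJ1 (0.97) and the reading frame YNL319W (0.97). On the other side ADH1, NQM1 and YBR089W were at -1, and POL30, DLD3 and RGI2 at -0.99. MIP6 is a paralogue of PES4, a member, and DLD3 is a lactate dehydrogenase gene.

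Among the 56 genes 0 pairs were immediate neighbours by the R64 gene order. Of 93 neighbouring pairs that held a member and had values for both genes, 13 had a partner that differed the same way by 0.5 or more, beside 4.82% of all genes higher and 5.31% lower by as much. GMC2 and NGK1 differed by 2.11 and 0.92, and SPS2 and SPS1 by 1.60 and 0.95. RPC19, DBP2 and CYB5, which lie in a row, differed by 1.07, 0.94 and 1.08. Signal shared between neighbours was not tested.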

How the data were processed

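Messenger RNA was measured on 2-colour arrays at 7 time points. Per the series design, the authors deposited the log2 of the ratio of each time point to the meiotic mix, divided by that ratio at 0 h. How the 3 cultures were combined, and any background correction, array normalization or filter, is not stated in those sources. The number of arrays limits the precision, and signal over background was not used here.

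The log2 values were used as deposited, with no further normalization. They carry 2 decimals, so differences were taken in whole hundredths (Python 3.11.15, pandas 2.3.3), and a difference of exactly 1 counts. Standard names came from RefSeq (R64 assembly), where 5238 of the 5666 rows with values matched and 428 did not. The counting code was tested on simulated data with changes well beyond the threshold, so differences near it were not tested. With 1 column per hour no test was run. Genes were grouped by 50 lists, and the functional groups of the 56 genes were assigned after their values were seen. The members and lists were chosen with earlier results of these data known. Named genes are the 56 genes, 22 landmark genes, up to 2 extremes per list each way, 3 genes on each side of the threshold and 3 genes most like NDT80. Other genes named, such as TDH1, TDH2, CDC9, CIT3 and NGK1, were chosen after their values were seen. A planned search for promoter motifs was not run, since promoter sequences were not used here.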

Additional observations from a re-analysis of the deposited data

How the results depend on the processing

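With a difference of 1.5 in place of 1, 11 genes changed from 2 h to 3 h, 10 higher and 1 lower. With a difference of 0.8 there were 141, 65 higher and 76 lower, so the balance of directions turned with the threshold. Counting only differences of more than 1, an alternative chosen after seeing the data, gave 52 genes (33 and 19), and protein-coding matches alone gave 54 (34 and 20). Subtracting column medians could change none of the 56, because the medians were -0.01 at both hours, so it is no check. Scaling the columns to the same SD also gave 56 genes (34 and 22), of which 51 were shared. It turned the median change of the strand exchange list from 0.165 to -0.0358 and moved CDC27, ADH1, NQM1, FCF1 and TDH3 to within 1 (0.99, -0.92, -0.95, -0.98 and -0.88). On the same side between 1 h and 4 h were 53 of the 56 under both of these alternatives. The column medians at 1 h and 4 h were 0.01 and 0, so subtracting them could change little here either. No replicate could be left out, and no paired analysis was possible because each time point is 1 column. The whole set rests on 2 columns, and an error common to all genes of a column could not be measured.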

Other observations

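A small set of genes turned sharply at 2 h. A rule was chosen after the values were seen: a step of 0.8 or more into 2 h and as much back out. By this rule 8 genes had a local peak at 2 h. Beside ARG8, NSA2 and FCF1 these were BFR2 and UTP13, both of small ribosomal subunit assembly, PRI2 of primase and the reading frames YGR160W and YDL152W. UTP13 stood at -3.85, -0.12, -1.02 and -0.85 from 1 h to 4 h, and BFR2 at -3.07, 0.24, -0.69 and -1.42. The reverse, a low at 2 h, was seen in SPS4 alone. A low at 3 h by the same rule was seen in CLB1 and NQM1, and a peak at 3 h in 0 genes. An error in the 2 h value of a gene would give such a turn, and this was not tested.

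Respiratory genes were slightly higher at 3 h in nearly the whole list. Of 33 measured genes of the respiratory chain and ATP synthase 30 were higher, as were 50.0% of all genes. The median change of the list was 0.24, and COX7 and ATP14 differed by 0.79 and 0.66. Proteasome genes were higher in 29 of 34 cases with a median of 0.21, UMP1 leading with 0.53. The mitochondrial ribosomal protein list, with a median of 0.03 over 65 genes, lay close to the 0.005 of all genes. Among galactose genes GAL10 and GAL7 were higher by 0.94 and 0.64, GAL1 differed by -0.01, and GAL3 was lower by 0.83.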
